A study of Rattus norvegicus with 35 samples.

Results

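Complement components were followed in the cardiac left ventricle of rats after a pressure load was placed on the heart. The members were C1qa, C1qb, C1qc, C1s, C2, C3, C4b, Cfd and Cfb, taken as every probe whose gene symbol in the probe annotation is one of these 9 names. Of the 9, 8 were measured, each by 1 probe, among 13337 genes named on the array. C3 has no probe of that symbol in the annotation used here and is not analysed here. All 8 probes were detected on all 35 arrays and were tested on each day. The animals were male Wistar rats without a genetic modification in the labels, and their age is not given there. In the ligated groups the abdominal aorta was tied off to induce cardiac hypertrophy, and the control groups had a sham operation. Left ventricles were taken 1, 6 or 42 days after the operation, with 6 arrays per group and 5 for ligated animals at day 6. The question at each day was whether ligated ventricles differed from sham ventricles of the same day.

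Complement is a cascade of plasma and tissue proteins that tags particles and dying cells for removal. In the classical pathway, C1q binds the target and the attached proteases C1r and C1s are activated. C1s then cuts C4 and C2, whose fragments join into an enzyme that cuts C3, the protein at the centre of the cascade. In the alternative pathway, factor D (Cfd) cuts factor B (Cfb) on bound C3b and so forms a second enzyme that cuts C3. Most plasma complement is made in the liver, whereas C1q is made largely by macrophages and dendritic cells, and C1r, C1s and C4 are also made by fibroblasts. The assay was a bead array, which reads the abundance of each messenger RNA as the brightness of beads that carry a matching probe. Levels below are log2 normalised intensities and differences are ligated minus sham on that scale, so that a difference of 1 is a doubling. Levels of different probes cannot be set against each other.

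As a check for heart muscle, 9 cardiomyocyte markers were each detected on all 35 arrays, which does not test which chamber was sampled. Between 32.8% and 40.3% of probes were detected per array, and a median of 30 to 42 beads per array stood behind a probe. Each day had a BeadChip of its own, which cannot be told apart from the day, and levels of sham animals were therefore read only beside ligated animals of that day. On the chips of days 1 and 42, positions A to F carried ligated and positions G to L sham RNA, so that an effect of position cannot be told apart from one of the operation. The chip of day 6 carried ligated RNA at positions A, B, G, H and I and sham RNA at D, E, F, J, K and L. Both A to F and G to L thus held both operations. Within each set the ligated arrays came first, so that position within a set cannot be told apart from the operation. At day 42 the ligated arrays were dimmer than the sham arrays, with a mean 75th percentile of scanner intensity of 206 against 293 (exact permutation test, two-sided, p = 0.00433), while at days 1 and 6 that test gave p = 0.104 and p = 0.762. The share of probes detected was 36.9% in ligated against 34.7% in sham arrays at day 1 (p = 0.0303) and 34.5% against 37.5% at day 42 (p = 0.00866), and at day 6 it was 37.6% against 36.9% (p = 0.528, exact permutation tests, two-sided). Scaling each array to its median in place of quantile normalisation put the median difference over all probes at 0.20 at day 1, -0.08 at day 6 and -0.47 at day 42, in place of -0.03, -0.04 and -0.01. In 1 ligated array of day 42, replicate 1, all 3 C1q probes and Cfd lay below every other array of the study's day 42.

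At day 6, 6 of the 8 complement probes rose in ligated ventricles and none fell, whereas at days 1 and 42 none passed the test (limma, Benjamini-Hochberg adjusted p under 0.05 over all probes tested). Among all probes tested, 11.4% were called at day 6, with 5.44% that rose and 5.91% that fell, against 28.7% at day 1 and 15.1% at day 42. At an unadjusted p under 0.05 the limma count was 1 member at day 1 (Cfd), 8 at day 6 and 1 at day 42 (C1s). Over all probes tested the same count was 3438 of 8236 at day 1, 2405 of 8492 at day 6 and 2802 of 8351 at day 42. The 6 members called at day 6 were C4b, C1qb, C1qc, C1qa, C2 and Cfb, between 1.77-fold and 4.29-fold. The median difference over the 8 members was 0.17 at day 1, 1.09 at day 6 and 0.25 at day 42, beside -0.03, -0.04 and -0.01 over all probes tested. Under median scaling the members' median lay 0.21, 1.09 and 0.19 above that of all probes, but only C4b passed at day 6, with 132 probes called in all in place of 964. In whole tissue, more cells of a type and more RNA per cell cannot be told apart.

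**Figure D1:**
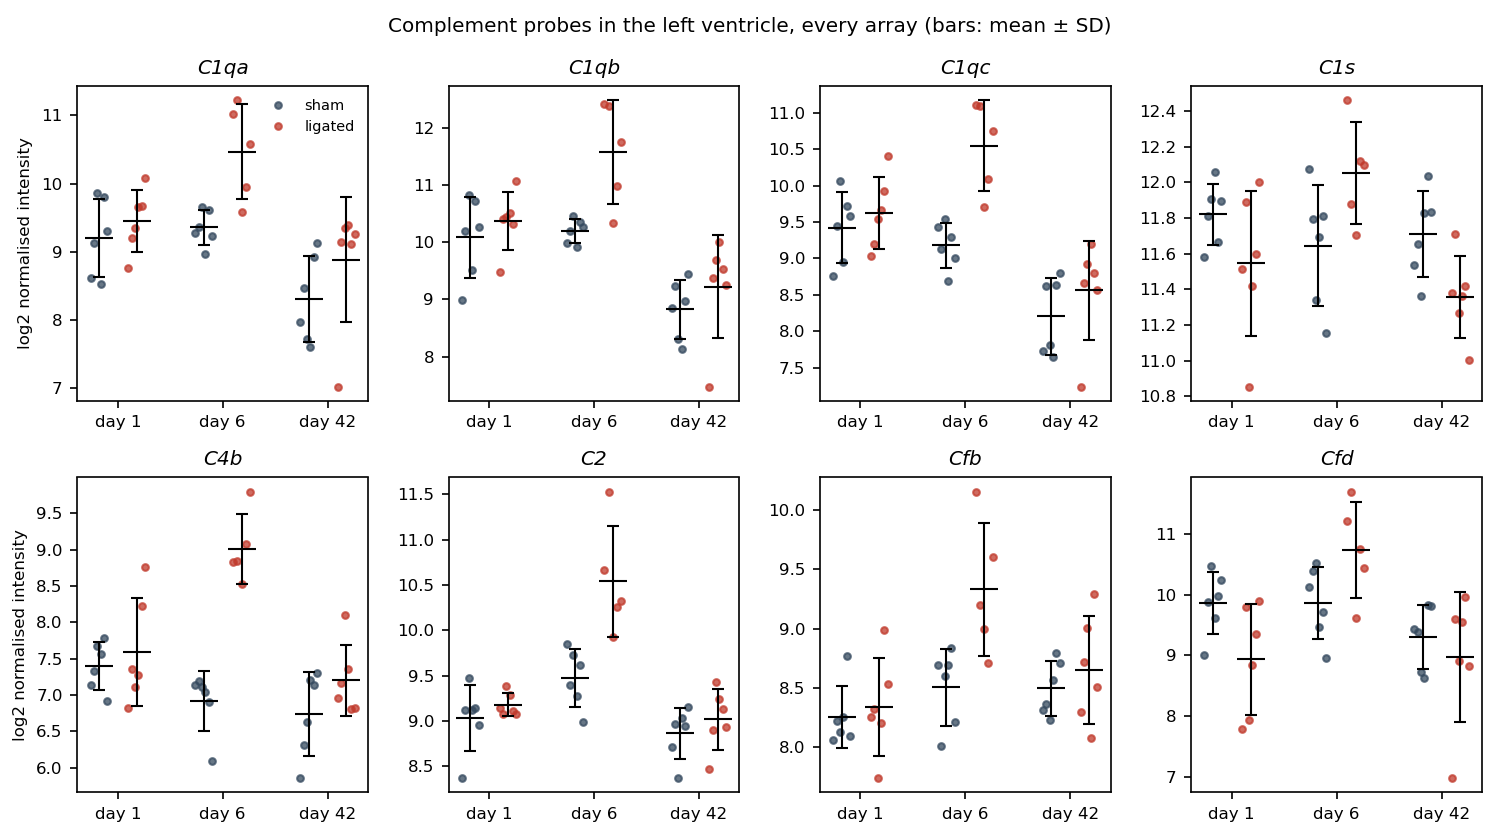
Log2 normalised intensity of the 8 complement probes on each of the 35 arrays, by day, with sham arrays in dark blue, ligated arrays in red, and bars for mean ± SD (n = 6 per group, 5 ligated at day 6). At day 6 the ligated C4b arrays lie between 8.53 and 9.80 and all sham arrays at or below 7.20. At day 42 a single ligated array lies far below the other ligated arrays for C1qa, C1qb and C1qc.

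The C1q genes encode the A, B and C chains of the recognition molecule, and C1qb, C1qc and C1qa lie side by side in this order on chromosome 5 of the GRCr8 assembly. The stretches of 250 bases before the start of C1qa and C1qb are shown because these genes moved together across arrays, and that of C4b because it had the largest difference of the members. They come from RefSeq (GRCr8), on the gene's own strand, for C1qa at chr5:154419934-154420183 on the minus strand, for C1qb at chr5:154407828-154408077 on the minus strand and for C4b at chr20:4201729-4201978 on the plus strand. Capitals mark the only match to a STAT-type motif, TTCNNNGAA, at positions -90 to -82 from the start of C1qa. The table matched 4 of the members, with Cfd as the other one, and had no entry for C1qc, C1s, C2 and Cfb.
C1qa: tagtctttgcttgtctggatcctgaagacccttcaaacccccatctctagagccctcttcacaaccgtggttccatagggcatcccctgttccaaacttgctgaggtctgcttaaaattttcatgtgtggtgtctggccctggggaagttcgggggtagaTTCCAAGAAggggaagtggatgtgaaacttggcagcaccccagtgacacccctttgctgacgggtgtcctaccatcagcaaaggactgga
C1qb: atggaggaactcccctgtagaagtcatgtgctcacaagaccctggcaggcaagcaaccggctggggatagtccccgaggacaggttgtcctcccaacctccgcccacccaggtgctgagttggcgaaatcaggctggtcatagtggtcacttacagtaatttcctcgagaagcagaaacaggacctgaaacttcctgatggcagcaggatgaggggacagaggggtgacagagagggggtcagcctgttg
C4b: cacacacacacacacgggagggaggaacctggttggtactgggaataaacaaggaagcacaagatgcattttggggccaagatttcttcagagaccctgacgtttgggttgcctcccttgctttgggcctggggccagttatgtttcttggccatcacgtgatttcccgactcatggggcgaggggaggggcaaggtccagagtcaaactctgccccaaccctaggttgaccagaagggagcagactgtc
Both strands of these windows and of the Cfd window were searched for TTCNNNGAA, for the interferon-stimulated element (GAAA, any 2 bases, GAAA), for the PU.1-type GAGGAAG and for the CEBP-type TTGCNNAA. The C1qa match was the only one. In the same 250-base windows of 33469 RefSeq promoters these letters occurred in 7.67%, 3.41%, 10.2% and 9.22%, and a match is a description of the sequence, not a binding site.

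All 3 C1q chains rose at day 6. For C1qa the ligated arrays, replicates 1 to 5, read 11.02, 11.22, 9.58, 9.95 and 10.58, and the sham arrays ran from 8.98 through a median of 9.33 to 9.66. Of the 5 ligated arrays 4 lay above all sham arrays, and replicate 3 lay within the sham range. The difference was 1.11 ± 0.26 (SE), or 2.16-fold, with an adjusted p of 0.0197 (limma). For C1qb the ligated arrays read 12.43, 12.39, 10.34, 10.99 and 11.77, against 9.93 to 10.46 in sham with a median of 10.23. Here again replicate 3 overlapped the sham arrays and the other 4 stood above them. The C1qb difference was 1.38 ± 0.32 (SE), or 2.61-fold (adjusted p = 0.0185, limma). For C1qc the ligated readings were 11.10, 11.09, 9.71, 10.09 and 10.75, and the sham arrays lay between 8.69 and 9.54 with a median of 9.21. The C1qc groups did not overlap, as in 4.22% of all probes tested for ligated above sham. Its difference was 1.37 ± 0.25 (SE), or 2.58-fold (adjusted p = 0.00674, limma). For each of these chains, replicates 1 and 2 gave the highest ligated values and replicate 3 the lowest.

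Replicates 1 and 2 of the ligated animals at day 6 were at chip positions A and B and were the brightest arrays of that day, with a 75th percentile of scanner intensity of 375 and 365, against 185 to 320 on the other arrays. Within positions A to F (2 ligated, 3 sham) the differences were 1.68 for C1qa, 2.19 for C1qb and 1.73 for C1qc. Within positions G to L (3 ligated, 3 sham) they were 0.76, 0.85 and 1.18. The differences of all 8 members were above 0 in both sets of positions. With positions as a block the C1q differences were 1.17, 1.45 and 1.43 (limma adjusted p = 0.00743, 0.00856 and 0.00203). In an alternative chosen after seeing the data, both arrays at A and B were left out, and 3 of the 6 calls were kept. C4b was 2.22 (adjusted p = 0.00269), C1qc 1.00 (adjusted p = 0.0281) and C2 0.69 (adjusted p = 0.0432) in that limma fit. C1qa at 0.68 (adjusted p = 0.0668), C1qb at 0.83 (adjusted p = 0.0614) and Cfb at 0.60 (adjusted p = 0.108) did not pass.

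C4b, the substrate of C1s and a part of the classical enzyme that cuts C3, had the largest day 6 difference of the members. Ligated arrays read 8.83, 8.84, 8.53, 9.08 and 9.80, and sham arrays ran from 6.09 through a median of 7.08 to 7.20. All 5 ligated arrays lay above all sham arrays, and the groups did not overlap. The difference was 2.10 ± 0.24 (SE), or 4.29-fold, with an adjusted p of 0.000303 (limma). The sham arrays were dim for this probe, with scanner intensities of 159 to 266 and detection p-values of up to 0.00606, where under 0.01 counted as detected. The size of the fold is therefore less certain than its direction, and over 24 alternatives the difference ran from 1.52 to 2.31. Replicates 1 and 2, highest for C1q, were not highest for C4b, where replicate 5 led. The difference was 1.68 within positions A to F and 2.46 within G to L. Rats carry a closely related copy of this gene, C4a, on the same chromosome, and whether the probe separates the copies is uncertain.

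C2, the other partner of that enzyme, lies next to Cfb on chromosome 20. Its ligated arrays at day 6 read 10.67, 11.53, 9.93, 10.25 and 10.32, and sham arrays lay between 8.99 and 9.85 with a median of 9.51. The groups did not overlap, and replicate 3 was closest to sham. C2 rose by 1.06 ± 0.25 (SE), or 2.09-fold (adjusted p = 0.0195, limma). The protease gene C1s read 12.46, 11.88, 11.70, 12.12 and 12.10 in ligated arrays, against 11.15 to 12.08 in sham with a median of 11.74. These groups overlapped, with 3 of 5 ligated arrays above all sham arrays. The C1s difference of 0.41 ± 0.18 (SE) did not pass (adjusted p = 0.155, limma), and its 95% confidence interval ran from 0.02 to 0.79.

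In the alternative pathway, Cfb encodes the protease that sits in the C3-cutting enzyme. Its ligated arrays at day 6 read 10.15, 9.20, 8.999, 8.71 and 9.60, and sham arrays lay between 8.01 and 8.84 with a median of 8.65. Replicate 4 lay within the sham range and the other 4 stood above it. Cfb rose by 0.83 ± 0.24 (SE), or 1.77-fold (adjusted p = 0.0412, limma). This call was close to the threshold: with 1 array of day 6 left out at a time it held in 2 of 11 fits, those without ligated replicate 3 (0.91, adjusted p = 0.0338) and without ligated replicate 4 (0.98, adjusted p = 0.0171). The difference without each array lay between 0.62 and 0.98.

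Cfd, the factor D or adipsin gene, had ligated values of 11.22, 11.69, 9.62, 10.75 and 10.44 at day 6. Sham arrays ran from 8.95 through a median of 9.92 to 10.52, so that the groups overlapped, with replicates 1, 2 and 4 above all sham arrays. The difference of 0.88 ± 0.35 (SE) did not pass (adjusted p = 0.121, limma). Its 95% confidence interval of 0.12 to 1.64 covers the differences of C1qa, C1qb, C1qc, C2 and Cfb, but not that of C4b. With chip position as a block it was 0.99 and passed (adjusted p = 0.0118, limma), and without ligated replicate 3 it was 1.16 (adjusted p = 0.0301, limma), the only 2 of 24 alternatives in which it passed. Without ligated replicate 2 it was 0.64 (adjusted p = 0.267), and without both arrays at positions A and B 0.41 (adjusted p = 0.466, limma).

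At day 1 none of the members passed. The C1q chains differed by 0.25 for C1qa, 0.29 for C1qb and 0.20 for C1qc, each with overlapping groups and adjusted p between 0.492 and 0.567 (limma). C1qb, for example, ran from 9.48 through a median of 10.43 to 11.07 in ligated arrays and from 8.99 through 10.24 to 10.82 in sham. C4b had a difference of 0.19 ± 0.29 (SE), with ligated arrays from 6.82 to 8.76 around a median of 7.32 and sham arrays from 6.92 to 7.78 around 7.45. Replicate arrays of ligated animals were spread more widely for C4b, with an SD of 0.74 against 0.33 in sham (n = 6 each), and 2 of the 6 lay above all sham arrays.

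Cfd had the largest day 1 difference of the members. Ligated arrays ran from 7.79 through a median of 9.09 to 9.90, and sham arrays from 8.998 through 9.93 to 10.47. Of the 6 ligated arrays 3 lay below all sham arrays. The difference of -0.93 ± 0.37 (SE) did not pass (adjusted p = 0.0707, limma). With 1 array left out at a time it passed in 3 of 12 fits, at -1.10 without ligated replicate 2, -1.12 without ligated replicate 6 and -1.10 without sham replicate 1 (adjusted p = 0.0323, 0.0311 and 0.0461, limma). It was weaker at -0.70 without ligated replicate 1 and -0.73 without ligated replicate 3 (adjusted p = 0.147 and 0.155, limma). Over 23 alternatives the Cfd difference ran from -1.12 to -0.43, and it passed in 5 of them. The remaining differences at day 1 were -0.27 for C1s, 0.15 for C2 and 0.08 for Cfb, with overlapping groups.

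At day 42 the differences of C1qa (0.57 ± 0.39, SE), C1qb (0.40 ± 0.36) and C1qc (0.36 ± 0.30) did not pass (adjusted p = 0.312, 0.462 and 0.432, limma). The ligated C1qa arrays ran from 7.03 through a median of 9.21 to 9.39, and the sham arrays from 7.61 through 8.23 to 9.13. Of the 6 ligated arrays 4 lay above all sham arrays, while replicate 1 lay below all of them. Without that array the limma fit gave 0.94 for C1qa (adjusted p = 0.0208) and 0.75 for C1qb (adjusted p = 0.0351), and both passed. These directions depended on how the dimmer ligated arrays of day 42 were scaled: median scaling gave -0.14 for C1qb and -0.19 for C1qc, and array brightness as a covariate gave -1.05 for C1qa, -1.05 for C1qb and -0.81 for C1qc. No direction of the C1q genes is therefore given for day 42.

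C4b at day 42 had ligated arrays from 6.81 through a median of 7.07 to 8.11 and sham arrays from 5.86 through 6.89 to 7.30. The groups overlapped, with 2 of 6 ligated arrays above all sham arrays, and the difference of 0.47 ± 0.27 (SE) did not pass (adjusted p = 0.237, limma). C1s ran from 11.00 through 11.37 to 11.71 in ligated arrays and from 11.36 through 11.74 to 12.03 in sham. Its difference of -0.35 ± 0.14 (SE) did not pass (adjusted p = 0.0861, limma), and under median scaling it was -0.84 and passed (adjusted p = 0.00237, limma). The differences of Cfd (-0.33), C2 (0.15) and Cfb (0.15) were smaller than the SD of the ligated arrays, which was 1.07 for Cfd, 0.33 for C2 and 0.45 for Cfb (n = 6). Under median scaling they were -0.87 for Cfd (adjusted p = 0.0398), -0.37 for C2 (adjusted p = 0.0491) and -0.38 for Cfb (adjusted p = 0.0859, limma), so that Cfd and C2 passed there and C2 and Cfb turned in sign.

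**Figure D2:**
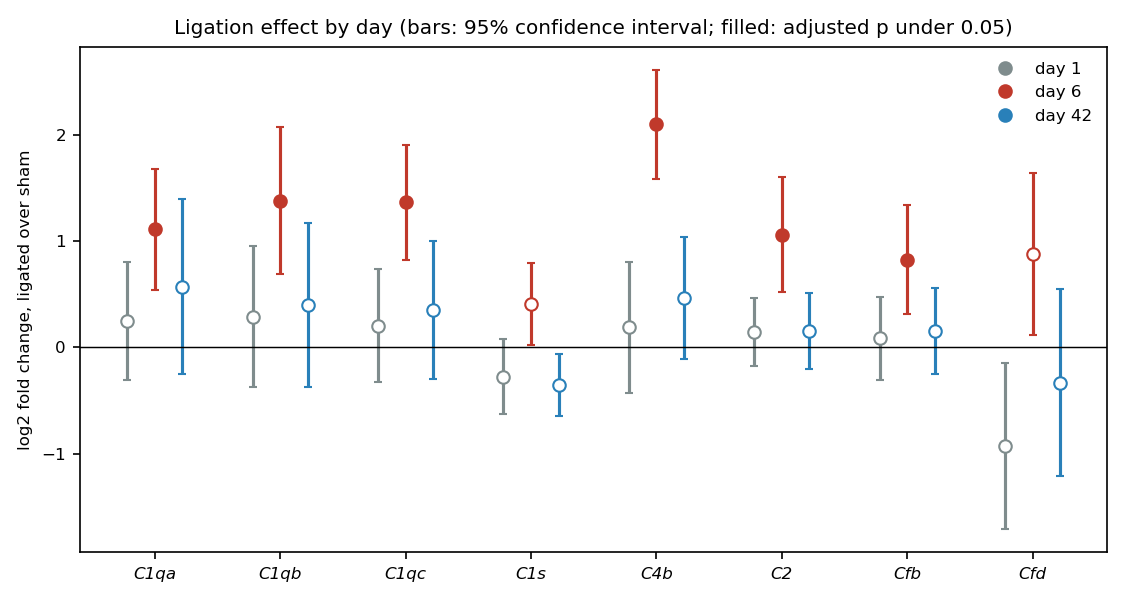
Log2 fold change of ligated over sham for each complement probe at days 1, 6 and 42, with 95% confidence intervals and filled points for an adjusted p under 0.05. The filled points are the 6 calls of day 6, from 0.83 for Cfb to 2.10 for C4b, and the largest negative point is that of Cfd at day 1, -0.93.

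Whether the ligation effect itself differed between days was tested in 1 fit of all 35 arrays. From day 1 to day 6 the effect on C4b was larger by 1.91 ± 0.41 (SE, adjusted p = 0.0183, limma), the only call among the 8 members, beside 0.868% of 8986 probes in either direction and 0.234% with a larger effect at day 6. Cfd went from -0.93 to 0.88, a difference of 1.81 ± 0.60 (SE) that did not pass (adjusted p = 0.151, limma). The C1q differences over the same interval were 0.86 for C1qa, 1.09 for C1qb and 1.16 for C1qc, and none passed (adjusted p = 0.452, 0.366 and 0.196, limma).

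From day 6 to day 42 the effect fell by 1.63 for C4b (adjusted p = 0.0162), by 0.91 for C2 (adjusted p = 0.0474) and by 0.76 for C1s (adjusted p = 0.0449, limma), which made 3 of 8 members against 7.38% of all probes in either direction and 3.61% downward. The C4b call held in all 23 fits that left out 1 array. Those of C1s and C2 held in 7 of 23 each, and over the 23 fits the differences ran from -0.85 to -0.66 for C1s and from -1.06 to -0.66 for C2. With replicate number as a block none of the 3 passed, at -1.47 for C4b, -0.81 for C2 and -0.66 for C1s (adjusted p = 0.0544, 0.108 and 0.0763, limma). For the C1q genes the differences were -0.54 for C1qa, -0.98 for C1qb and -1.01 for C1qc, and none passed (adjusted p = 0.511, 0.234 and 0.130, limma). A decline of the C1q response after day 6 was not resolved by this test. From day 1 to day 42 none of the 8 members was called, beside 8.68% of all probes. Their differences lay between -0.08 and 0.59 (limma, lowest unadjusted p = 0.314).

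The wider pathway held 30 other genes with a probe, of which 12 were tested at day 1, 11 at day 6 and 12 at day 42. Of the 11 at day 6, 3 rose and 2 fell, where 11.4% of all probes were called. Of the 12 at day 1, 1 rose, where 1079 of all 8236 probes rose and 28.7% were called in either direction. Of the 12 at day 42, 2 fell, where 648 of all 8351 probes fell and 15.1% were called in either direction. In the first step of the classical pathway, C1r, the partner protease of C1s and its neighbour on chromosome 4, had a day 6 difference of 0.46 ± 0.18 (SE, adjusted p = 0.118, limma). Colec12, a scavenger receptor with a collagen-like stem, fell at day 42 by 0.80 ± 0.21 (SE, adjusted p = 0.0217, limma). In the alternative pathway, properdin (Cfp), which stabilises the C3-cutting enzyme, rose at day 6 by 0.89 ± 0.19 (SE), or 1.85-fold (adjusted p = 0.0137, limma), with no overlap of the groups. Of the genes of the terminal pathway, C6, C8a, C8g and C9 have probes, and 0 of 4 passed the filter on detection on any day.

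Among regulators, Serping1, which encodes the C1 inhibitor that blocks C1r and C1s, rose at day 6 by 0.60 ± 0.17 (SE, adjusted p = 0.0416, limma). Clusterin (Clu), an inhibitor of the terminal complex, rose by 0.59 ± 0.15 (SE, adjusted p = 0.0294, limma). Vitronectin (Vtn), which also binds the terminal complex, fell by 0.90 ± 0.19 (SE, adjusted p = 0.0128, limma), and every ligated array lay below every sham array, as for 3.91% of all probes. Cr1l, a membrane regulator of C3-cutting enzymes in rodents, fell at day 42 by 0.38 ± 0.11 (SE, adjusted p = 0.0339, limma). Among receptors, Cd93, a surface protein of endothelial and myeloid cells first described as a C1q receptor, fell at day 6 by 0.66 ± 0.13 (SE, adjusted p = 0.0107, limma), again with no overlap. Calreticulin (Calr), a chaperone that binds C1q at the cell surface, rose at day 1 by 0.61 ± 0.15 (SE, adjusted p = 0.00999, limma). With 1 array left out at a time, Cfp, Vtn, Cd93, Calr and Colec12 kept their calls in every fit. Serping1 kept its call in 3 of 11 fits, Clu in 6 of 11 and Cr1l in 4 of 12. Under median scaling Vtn passed (-0.96, adjusted p = 0.0414, limma). Cfp (0.87), Cd93 (-0.76), Serping1 (0.50) and Clu (0.50) did not (adjusted p = 0.197, 0.215, 0.315 and 0.422, limma). With array brightness as a covariate, Calr at day 1 (0.47) and Colec12 (-0.96) and Cr1l (-0.32) at day 42 did not pass (adjusted p = 0.0630, 0.350 and 0.613, limma).

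**Figure D3:**
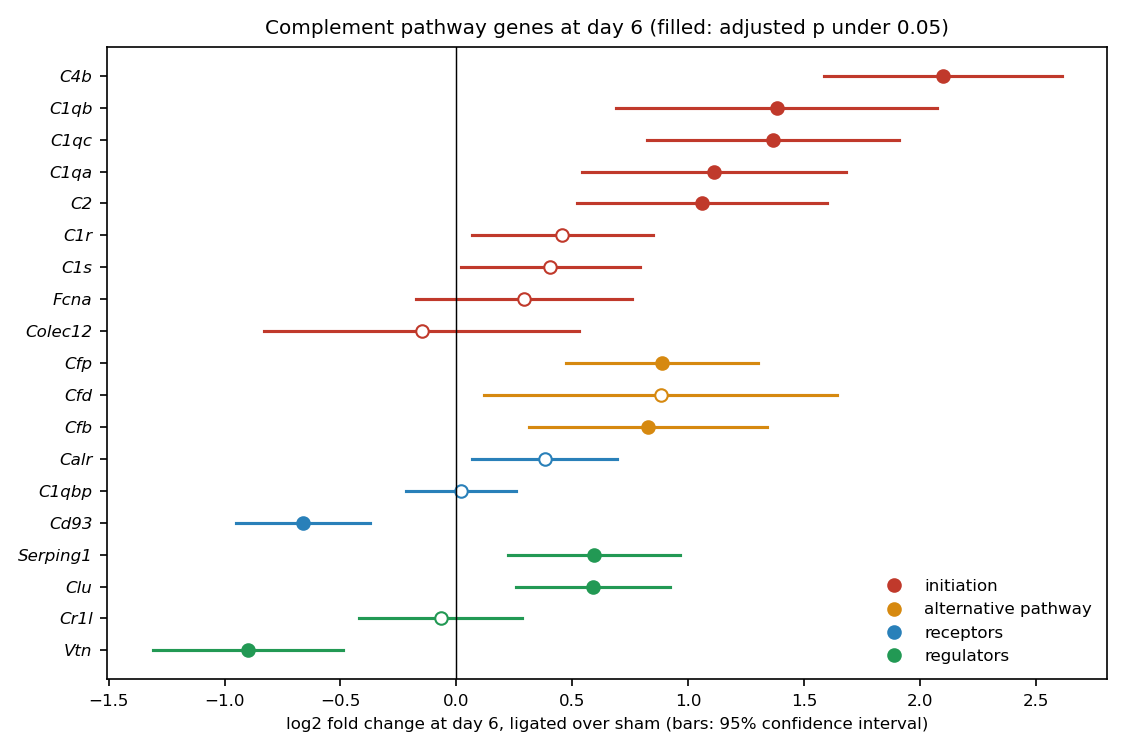
Log2 fold change of ligated over sham at day 6 for the 19 complement genes tested, grouped by role, with 95% confidence intervals and filled points for an adjusted p under 0.05. The initiation and alternative pathway genes that passed lie to the right of 0, while the receptor Cd93 (-0.66) and the regulator Vtn (-0.90) lie to the left.

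Markers of cell types were read beside the complement genes. Of 10 macrophage markers tested at day 6, 7 rose, among them Lgals3 (2.01 ± 0.39, SE), Mrc1 (1.65 ± 0.34) and Ctss (1.08 ± 0.28), with adjusted p of 0.00896, 0.0113 and 0.0258 (limma). Of all probes tested, 5.44% rose on that day. The calls moved with the arrays included: leaving out 1 array kept 2 of the 7 without sham replicate 4 or 6, 3 without ligated replicate 1 or 5 or sham replicate 1, 2 or 5, 4 without ligated replicate 2, and 5 to 7 without the others. Lgals3 and Mrc1 were called in all 11 of these fits, and they were the 2 kept without both arrays at positions A and B. Median scaling kept Lgals3 alone, with Ctss at 0.97 (adjusted p = 0.260, limma). The summed level of the 11 macrophage probes on the linear scale was 23988, 46320, 8538, 13415 and 18233 in ligated replicates 1 to 5, against 6362 to 7792 in sham. In this sum every ligated array lay above the sham arrays, with replicate 3 closest to them. Of the 10 single markers tested, 3 had every ligated array above every sham array, beside 4.22% of all probes. Replicate 3 was also the lowest ligated array for each C1q chain, and lay within the sham range for C1qa and C1qb. At day 1, 4 of 10 macrophage markers rose, among them Cd14, Tyrobp and Aif1. On that day 1079 of all 8236 probes tested rose, and 28.7% were called in either direction. With array brightness as a covariate 1 of these 4 calls, that of Cd14, was kept (Tyrobp 1.01, adjusted p = 0.0511; Aif1 0.56, adjusted p = 0.0576, limma). The summed level at day 1 was 7406 to 22646 in ligated and 4876 to 8810 in sham arrays, while no C1q gene was called. At day 42 none of 8 was called (1 at an unadjusted p under 0.05, limma), with summed levels of 3097 to 6410 and 4103 to 6406, and the lowest array was the same ligated replicate 1 that was lowest for C1q. Its part in the complement differences was not tested.

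The fibroblast markers Col1a1 (1.09 ± 0.26, SE) and Mfap5 (1.10 ± 0.24) rose at day 6 (adjusted p = 0.0209 and 0.0134, limma), 2 of 8 tested. Of all probes, 5.44% rose on that day. With 1 array left out, the call held in 10 of 11 fits for Col1a1 and in 11 for Mfap5. Under median scaling neither passed (0.98 and 1.03, adjusted p = 0.152 and 0.197, limma). Col1a1 also did not pass without the detection filter (adjusted p = 0.0584) or with replicate number as a block (adjusted p = 0.0844, limma). The summed fibroblast levels were 51687 to 97391 in ligated and 48402 to 67011 in sham arrays. Dpt fell at day 1 and Col3a1 at day 42, with calls kept in 12 and 2 of 12 fits that left out 1 array. For Cfd, which adipocytes make in quantity in rodents, the adipocyte markers Adipoq, Lep, Retn and Cidec were detected on 0 of 35 arrays and Pck1 on 2, while Fabp4, also expressed by endothelial cells, fell at day 1 (-0.37, adjusted p = 0.0416, limma). That call held in 3 of 12 fits with 1 array left out, and under median scaling the value was -0.13 (adjusted p = 0.476, limma). In the summed adipocyte level, Cidea and Fabp4 are the only probes detected on more than 2 arrays. This sum was 9970 to 18511 in ligated and 17103 to 19747 in sham arrays at day 1, and 11855 to 16181 against 16663 to 20920 at day 6. At day 6 every ligated array lay below every sham array in this sum, as for 3.91% of all single probes. Neither of the 2 adipocyte markers tested was called at day 6 (1 at an unadjusted p under 0.05, limma), with -0.35 for Fabp4 and -0.41 for Cidea (adjusted p = 0.101 and 0.177, limma). Of 7 neutrophil markers 6 were detected on no array, and S100a8 was not called on any day. Of the endothelial list, Vwf rose at day 1 and Tek fell at day 42, 1 of 5 tested on each of these days. Of all probes, 1079 of 8236 rose at day 1 and 648 of 8351 fell at day 42. At day 6, 0 of 4 endothelial markers were called, and none had an unadjusted p under 0.05 (limma). Of 5 red blood cell genes tested at day 1, Hbb-b1 and Alas2 fell, where 1285 of all 8236 probes fell. Their calls were kept in 12 and 2 of 12 fits that left out 1 array. None of the 9 cardiomyocyte markers was called on any day (limma, unadjusted p under 0.05 for 0, 2 and 0 of them at days 1, 6 and 42). The part of these cell types in the complement values was not tested.

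**Figure D4:**
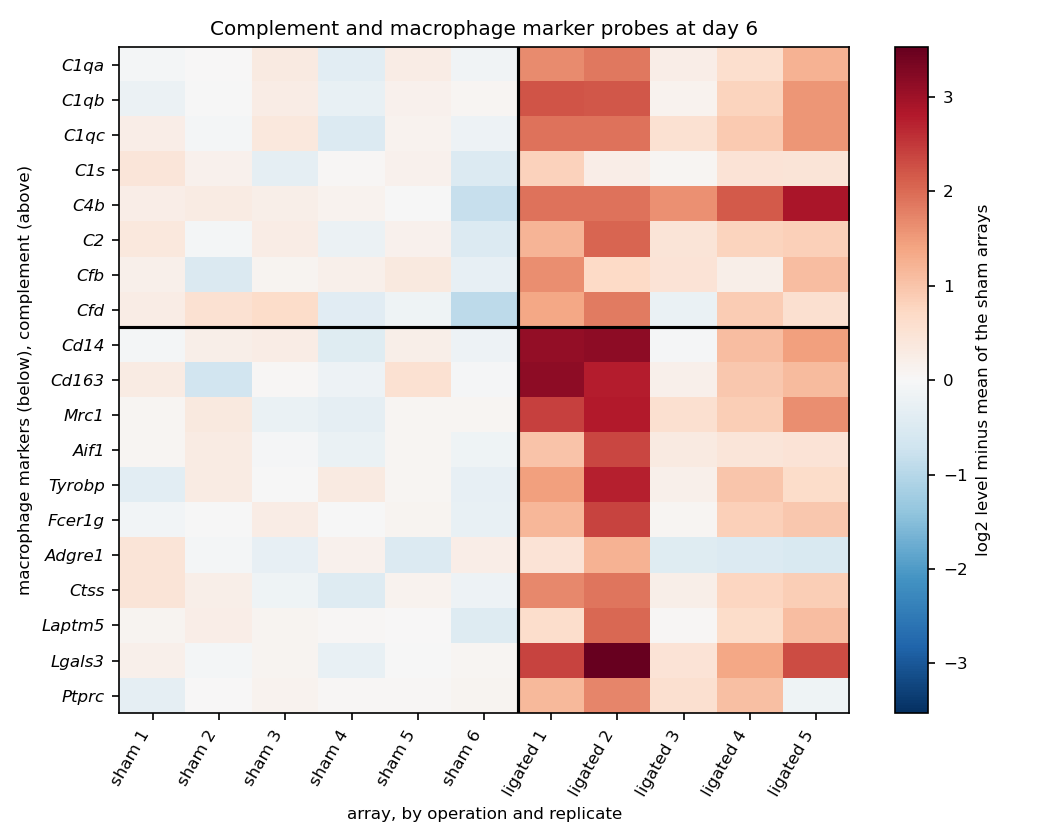
Log2 level minus the mean of the sham arrays for the 8 complement probes (upper rows) and 11 macrophage probes (lower rows) on each array of day 6. Ligated replicates 1 and 2 are the most strongly coloured for C1q and for most macrophage probes, replicate 3 the palest, and C4b is strong in all 5 ligated arrays.

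Within groups, the members differed by degrees in how closely they moved together. After each array was set against the mean of its own group, C1qa and C1qc correlated at r = 0.95 over the 35 arrays, C1qa and C1qb at 0.94 and C1qb and C1qc at 0.92. Among 5963 probes of genes detected on all 3 days, the next most like gene for each chain was Clec10a, a lectin of macrophages and dendritic cells, at 0.90, 0.91 and 0.89. C2 was most like Fcer1g (0.79), Folr2 (0.78) and Clec4a3 (0.77), and correlated with the C1q chains at 0.65 to 0.67. Cfd was most like transferrin (Tf, 0.80), Clec10a (0.80) and C1qb (0.79). C4b, by contrast, correlated with the C1q chains at 0.30 to 0.46, and its most like genes were Itgb4 (0.75), Serping1 (0.74) and Psen2 (0.72). C1s was most like Fech (0.71), Hnrnpa3 (0.68) and Aox1 (0.66), and correlated with the C1q chains at 0.18 to 0.26 and with Cfd at 0.49. Cfb had the weakest nearest genes, with Alox5 (0.61), Vwf (0.59) and Clptm1 (0.54), and correlated with the C1q chains at 0.36 to 0.42. These correlations are descriptions over arrays that share chips and brightness differences. The most like genes were picked as the highest of 5963 correlations, whose full spread was not examined.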

How the data were processed

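Per the file headers, the deposited tables give each probe's scanner intensity, its detection p-value and other values such as its bead number. The submitters' processing notes name BeadStudio 3.3 and GenomeStudio (version not stated). The intensity in the deposited series matrix had been background-subtracted and normalised by the authors in a way not given in the sources used here, and served as an alternative. Another 4 columns at day 6, those of 1 array, match none of the samples and were left out. Of 22523 probes, 13793 have a symbol. Background was removed with limma's normexp model, whose negative controls were inferred from detection p-values (offset 16), before quantile normalisation by day and a log2 transformation. A probe entered the test of a day if at least 5 arrays detected it (p under 0.01), which left 8236, 8492 and 8351 probes. Groups came from the labels. Tests used limma 3.58.1 (lmFit, eBayes; R 4.3.3) with Benjamini-Hochberg adjustment over all these probes and a threshold of 0.05, and effects of different days were compared in a fit of all 6 groups over 8986 probes. The scripts were tested on simulated data. All members, every pathway gene called on a day, the 3 genes most like each member and up to 3 markers per cell type list were named. The members and lists were chosen with earlier results of these data known. The number of arrays limits the precision. Alternatives were other background, scaling and detection settings, the series matrix, other variance models, blocks for replicate number and chip position, brightness as a covariate, and each array left out.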

Additional observations from a re-analysis of the deposited data

Results flagged for a closer look

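Values that stand apart from the rest of their group were looked for in 48 sets, each a complement probe in a group. In 5 sets 1 array lay far from the others by Dixon's criterion, a number to be read against about 1 in 20 by chance. In ligated animals at day 42, replicate 1 read 7.03 for C1qa, 7.47 for C1qb and 7.24 for C1qc, where the next lowest arrays read 9.12, 9.26 and 8.56. All 3 values are of the same array. In sham animals at day 6, replicate 6 read 6.09 for C4b, with the next at 6.90. In sham animals at day 1, replicate 5 read 8.77 for Cfb, with the next at 8.26.

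The ligation effect differed between days by the test of that difference for C4b from day 1 to day 6 (1.91), and from day 6 to day 42 for C4b (-1.63), C2 (-0.91) and C1s (-0.76). None of these calls held with replicate number as a block, and the chip layout differed between the days compared.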

How the results depend on the processing

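C4b was called at day 6 in 24 of 24 alternatives, C1qc in 23, C2 in 21, C1qa and C1qb in 20 each and Cfb in 9. Counts of members called, 0 at day 1, 6 at day 6 and 0 at day 42, moved as follows. Median scaling gave 1 at day 6 and 3 at day 42 (C1s, C2 and Cfd, lower), and 1 for the change from day 1 to day 42. It moved the split of all probes called from 1079 higher and 1285 lower to 1714 and 328 at day 1, from 462 and 502 to 50 and 82 at day 6, and from 612 and 648 to 81 and 4629 at day 42. For the changes it moved it from 21 and 57 to 6 and 75 (day 1 to 6), from 339 and 324 to 26 and 518 (day 6 to 42) and from 404 and 376 to 33 and 4675 (day 1 to 42). Without the detection filter 2 were called at day 6 and 1 for the change from day 6 to day 42, with 563 probes in all at day 6. Array weights gave 2 at day 1, 3 for the change from day 1 to day 6 and 1 from day 6 to day 42. Brightness as a covariate, which at day 42 nearly follows the operation, gave 1 for the change from day 6 to day 42 and left 3 probes called at day 42 and 1205 at day 1. A shared spread gave 1627 probes at day 6. All probes called for the changes from day 1 to 6, 6 to 42 and 1 to 42 (78, 663 and 780) were 919, 440 and 2557 under array weights, which gave 2136 at day 42, and were 36 and 460 for the first and last without the filter. The series matrix gave 51 for the first, and brightness 214 and 0 for the later ones. Leaving out both ligated arrays at positions A and B, chosen after seeing the data, gave 3 members and 6 genes of the wider pathway at day 6. Deviations of same-numbered arrays correlated at -0.27 to 0.34, and the numbers were not taken to pair them. The replicate block gave 341 probes at day 6, 40 and 364 for the changes from day 1 to 6 and 6 to 42, and 1 member at day 1, 2 at day 6 and 0 for the changes from day 1 to day 6 and from day 6 to day 42.

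The wider pathway, members included, had 1 call at day 1, 11 at day 6 and 2 at day 42. Day 1 had 2 under median scaling and under a shared spread, 3 without the filter and under the replicate block, 6 under array weights and 0 with brightness. Day 6 had 2 under median scaling, 5 without the filter and 3 under the replicate block. Day 42 had 7 under median scaling, 1 with detection in every array, 5 under array weights and 0 with brightness.

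With 1 array left out, members called ran from 0 to 1 at day 1, 5 to 7 at day 6 and 0 to 2 at day 42, and from 1 to 1, 1 to 3 and 0 to 0 for the changes from day 1 to 6, 6 to 42 and 1 to 42. The wider pathway ran from 1 to 4, 8 to 12 and 1 to 5. All probes called ran from 1577 to 2939, 536 to 1188 and 683 to 1782. The 2 at day 42 were C1qa and C1qb without ligated replicate 1.

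Of single genes, 15 values changed direction, none at day 6. At day 42, median scaling gave -0.14 for C1qb, -0.19 for C1qc, -0.37 for C2 and -0.38 for Cfb. Brightness gave -1.05 for C1qa, -1.05 for C1qb, -0.81 for C1qc, -0.30 for C2, -0.30 for Cfb and 0.039 for Tek. Cfd at day 42 was 0.096 under array weights and 0.065 without ligated replicate 1, with a range of -0.53 to 0.065 over the arrays left out. C1qa from day 6 to day 42 was 0.071 under array weights. At day 1, Cfb was -0.045 without ligated replicate 5, with a range of -0.045 to 0.20, and C4b was -0.046 without ligated replicate 6, with a range of -0.046 to 0.34. The cause was not tested. Probes near background limit what can be said of genes that failed the detection filter.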
